A study of Mus musculus with 88 samples.

Results

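Fibroblasts derived from a female embryonic stem cell (ESC) line kept in 2i medium were compared with fibroblasts taken from mouse embryos (MEFs), gene by gene, in 3 of the 26 RNA-seq libraries of a series of 88 mouse samples. The fibroblasts of ESC origin, named 2i-MEF, formed 1 library (line 15, XX). The embryo fibroblasts formed 2 libraries, MEF 2 and MEF 4. All 3 came from the F1 cross of 129X1/SvJ and MSM/Ms, and the labels name no transgene, deletion or drug for any of them. 2i medium blocks 2 kinases, MEK, which lies just above ERK in its cascade, and GSK3, which restrains Wnt signalling; the ESC line had been in it before the fibroblasts were made. The labels give the MEFs passage 1 and the 2i-MEF 5 plus 1 passages, so ESC origin, culture in 2i and passage cannot be told apart. They do not say from which kind of embryo this 2i-MEF library was made. The 2i-MEF stands for 1 ESC line and 1 library, so every gene below is a description of that library, judged by how far it lay from both MEF values relative to the gap between the MEFs.

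Fibroblasts are the mesenchymal cells that make collagens and the rest of the connective tissue matrix. Genomic imprinting is a form of gene control in which only the copy from the mother or only the copy from the father is read. It rests on DNA methylation laid down in the egg or in the sperm, which body cells then copy at every division, and which many mouse ESC lines lose in culture. Imprinted genes often act on growth. Igf2 encodes a growth factor, Igf2r the receptor that takes it up for degradation, Grb10 an adaptor that dampens insulin and growth factor receptor signals, and Cdkn1c an inhibitor of the cell cycle. Grb10, Igf2r and Cdkn1c are read from the maternal copy in fibroblasts and most other tissues, and Igf2 and Mest from the paternal copy.

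The promoters of Grb10, Igf2r, Igf2 and Mest are shown because these were the 4 imprinted genes farthest from both MEFs, and because methylation acts on the dinucleotide CG. Each run holds 250 bases before to 50 bases after a RefSeq start (GRCm38.p6, the mm10 build), on the gene's own strand, with every CG in capitals. Where RefSeq lists several starts, the one with the most CG is given. Of the 8 imprinted genes called below, 7 had an entry in the table. Cdkn1c had none.
Grb10, chr11:12037371-12037670, minus strand: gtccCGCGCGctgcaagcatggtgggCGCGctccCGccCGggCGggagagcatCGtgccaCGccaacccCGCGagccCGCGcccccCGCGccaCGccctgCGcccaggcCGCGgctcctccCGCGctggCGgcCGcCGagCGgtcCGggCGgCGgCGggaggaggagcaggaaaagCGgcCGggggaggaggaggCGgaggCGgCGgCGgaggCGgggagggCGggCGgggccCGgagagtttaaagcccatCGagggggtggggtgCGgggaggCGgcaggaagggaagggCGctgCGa
Igf2r, chr17:12769657-12769956, minus strand: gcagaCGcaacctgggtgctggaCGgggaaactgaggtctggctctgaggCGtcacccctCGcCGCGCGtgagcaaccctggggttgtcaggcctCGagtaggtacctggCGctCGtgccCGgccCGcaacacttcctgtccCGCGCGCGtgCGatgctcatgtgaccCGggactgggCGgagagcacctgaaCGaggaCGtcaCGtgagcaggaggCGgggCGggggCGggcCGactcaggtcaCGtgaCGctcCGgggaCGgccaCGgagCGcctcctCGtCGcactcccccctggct
Igf2, chr7:142658755-142659054, minus strand: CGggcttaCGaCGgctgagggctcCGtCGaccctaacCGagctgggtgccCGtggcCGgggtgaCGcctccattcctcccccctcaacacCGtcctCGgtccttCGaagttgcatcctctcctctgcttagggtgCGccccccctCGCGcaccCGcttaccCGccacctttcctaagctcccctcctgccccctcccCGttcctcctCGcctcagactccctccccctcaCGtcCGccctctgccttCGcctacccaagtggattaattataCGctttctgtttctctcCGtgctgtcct
Mest, chr6:30737800-30738099, plus strand: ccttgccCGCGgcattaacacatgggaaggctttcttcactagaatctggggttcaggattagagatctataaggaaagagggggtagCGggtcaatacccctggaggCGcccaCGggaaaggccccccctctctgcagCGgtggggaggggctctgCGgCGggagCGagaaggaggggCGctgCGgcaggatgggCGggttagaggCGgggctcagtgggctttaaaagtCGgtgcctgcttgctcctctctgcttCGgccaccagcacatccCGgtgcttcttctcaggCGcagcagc

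These windows held 45 CG in Grb10, 34 in Igf2r, 24 in Igf2 and 17 in Mest. The median over all 32851 RefSeq promoters of the same length was 7, and 94.6% of them held at least 1. At least 45 CG were found in 1.93% of promoters, at least 34 in 7.73%, at least 24 in 20.0% and at least 17 in 31.4%. These shares count every start singly, whereas genes with several starts are shown by the one richest in CG. For such genes the shares overstate how unusual the promoter is. The second Grb10 start held 9 CG and the further Igf2 starts 14, 7 and 2. Of the further Mest starts, 1 overlaps the window shown and held the same 17, and the other held 8. Among the remaining imprinted genes called, the Dlk1 promoter held 9, that of Htr2a 6 and that of Slc22a18 2. These counts describe the letters; methylation of these windows was not analysed here.

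Values are RPKM, read numbers scaled by transcript length and by the mapped reads of the library, so levels can be set beside each other between genes. RPKM summed to 624274 in 2i-MEF, 641479 in MEF 2 and 632942 in MEF 4, and 11304, 11546 and 11234 genes reached 1 RPKM. Read totals are unknown; by the spacing of the lowest values, the depth of 2i-MEF was about 0.72 times and that of MEF 4 about 1.14 times that of MEF 2, and only 14.7% and 14.0% of low genes shared that spacing. The fibroblast label held in each library: 10 defining fibroblast markers ran from 29.9 to 4850 RPKM in 2i-MEF, from 35.6 to 2177 in MEF 2 and from 15.7 to 1741 in MEF 4. The pluripotency factor gene Pou5f1 read 0.244, 0 and 0.0337 RPKM, against 1806 in 2i-ESC line 15, the parent line.

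The MEF libraries were unlike each other in 2 respects that bear on what follows. Their titles and descriptions conflict on sex: the library titled MEF 2 XX is described as XY, and the one titled MEF 4 XY as XX. Of 8 X-linked genes that escape silencing on the inactive X, 6 were higher in MEF 4 than in MEF 2. Eif2s3x, a translation factor gene of this group, read 67.6 RPKM in MEF 2, 125 in MEF 4 and 70.6 in 2i-MEF; Kdm5c, a histone demethylase gene, read 35.3, 49.6 and 43.0. None of the 8 was called by the rule given below, and no sex was assigned to a MEF.

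**Figure D1:**
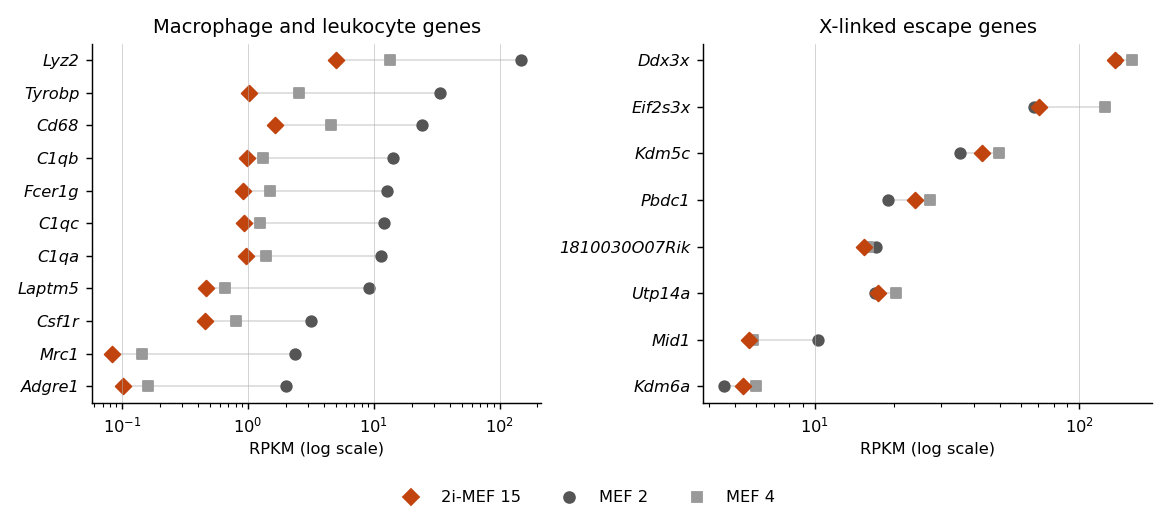
RPKM (log scale) of kept macrophage and leukocyte genes (left) and X-linked escape genes (right) in 2i-MEF (diamond), MEF 2 (circle) and MEF 4 (square), 1 library each; the grey line spans the 3 values. All 11 leukocyte genes were highest in MEF 2 and lowest in 2i-MEF, and 6 of 8 escape genes were higher in MEF 4 than in MEF 2.

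Macrophage and leukocyte markers differed more. All 11 kept genes of that list (of 12) were higher in MEF 2 than in MEF 4, and all 11 were lower still in 2i-MEF. Their summed level was 12.6 RPKM in 2i-MEF, 273 in MEF 2 and 28.1 in MEF 4. Lyz2, the lysozyme gene of macrophages, read 4.99, 148 and 13.5. The defining gene Ptprc (CD45) was not kept, at 0.0561 RPKM in 2i-MEF, 0.977 in MEF 2 and 0.292 in MEF 4. None of the list was called, because each lay nearer to MEF 4 than the MEFs lay to each other; all 11 were called lower against MEF 2 alone (median -2.79) and 2 against MEF 4 alone (median -0.29). Genes of mesothelium, the lining of body cavities, separated the MEFs as well: Upk3b read 9.25 RPKM in MEF 2, 0.141 in MEF 4 and 2.51 in 2i-MEF, and Wt1 read 7.12, 0.117 and 4.27. The part of these cells in the differences below was not tested, and in bulk RNA fewer cells of a type and less RNA per cell cannot be told apart. Counts against a MEF alone are given beside some of the results below.

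Genes were kept when any of the 3 libraries reached 1 RPKM. Across these 11921 genes, 2i-MEF resembled both MEFs, and MEF 2 more closely. On log2(RPKM + 1), Pearson's r across genes was 0.967 with MEF 2 and 0.952 with MEF 4, while the MEFs correlated at 0.979 and 2i-MEF correlated with 2i-ESC line 15 at 0.722. Genes are not independent replicates, and these values are descriptions. The median absolute difference was 0.24 log2 units from MEF 2, 0.28 from MEF 4 and 0.18 between the MEFs. Differences are given in log2 units on this scale throughout, which understates changes where a level is near 1 RPKM or less.

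A gene was called when 2i-MEF lay outside both MEFs, at least 1 log2 unit from the nearer one and by more than the gap between them. By this rule 167 genes were higher (1.40% of those kept) and 241 lower (2.02%) in 2i-MEF, 408 in all (3.42%). At any distance, 34.1% of kept genes lay above both MEFs and 43.5% below both. Scaling moved that balance: with quantile normalization 203 genes were higher and 197 lower, and with median scaling 197 and 211. With a single MEF as reference, and so no gap condition, 225 were higher and 455 lower than MEF 2, and 535 higher and 539 lower than MEF 4. MEF 2 was the nearer MEF for 136 of the 167 higher and 177 of the 241 lower genes; over all genes above both MEFs it was the nearer for 70.4%, and over all below both for 54.8%. The distance reached 2 units for 19 higher and 27 lower genes, and 4 units for 1 higher and 4 lower genes.

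The rule's threshold passed through a dense set of genes. Just inside it lay Slc6a9, at 50.03 RPKM in 2i-MEF against 24.5 and 23.6, and Has2, the hyaluronan synthase gene, at 10.5 against 22.1 in MEF 2 and 22.1 in MEF 4. Just outside lay the homeobox gene Hoxa2, at 2.75 against 0.875 and 0.541, and Mgmt, a DNA repair gene, at 17.2 against 35.4 and 41.6.

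A limma fit over all 10 libraries of the cross gave the test. Of the kept genes, 40 were higher (0.336%) and 64 lower (0.537%) at a Benjamini-Hochberg adjusted p under 0.05, 104 in all (0.872%), and all 104 were also called by the rule. The fit held, beside the fibroblasts, 4 ESC lines in 2i and 2 in serum, all at passage 3, and 1 culture of 2i-ESC line 15 moved to serum for 14 further passages. Line 15 thus entered 3 groups, and the fit took its libraries as independent. With the 2i-ESC and 2i-S-ESC libraries of that line left out, a choice made after the data were seen, 8 libraries and 3 residual degrees of freedom remained and limma called 12 genes higher and 24 lower; 33 of these 36 were among the 104. In either fit the lone 2i-MEF was assumed to vary like the other groups, whose spread came mostly from ESC lines. Fitted over the 3 fibroblast libraries alone, with 1 residual degree of freedom, limma called 0 genes, although 1802 had an unadjusted p under 0.05, against 1597 in the larger fit. Adjusted p-values below come from the larger fit and measure only the spread between these libraries.

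**Figure D2:**
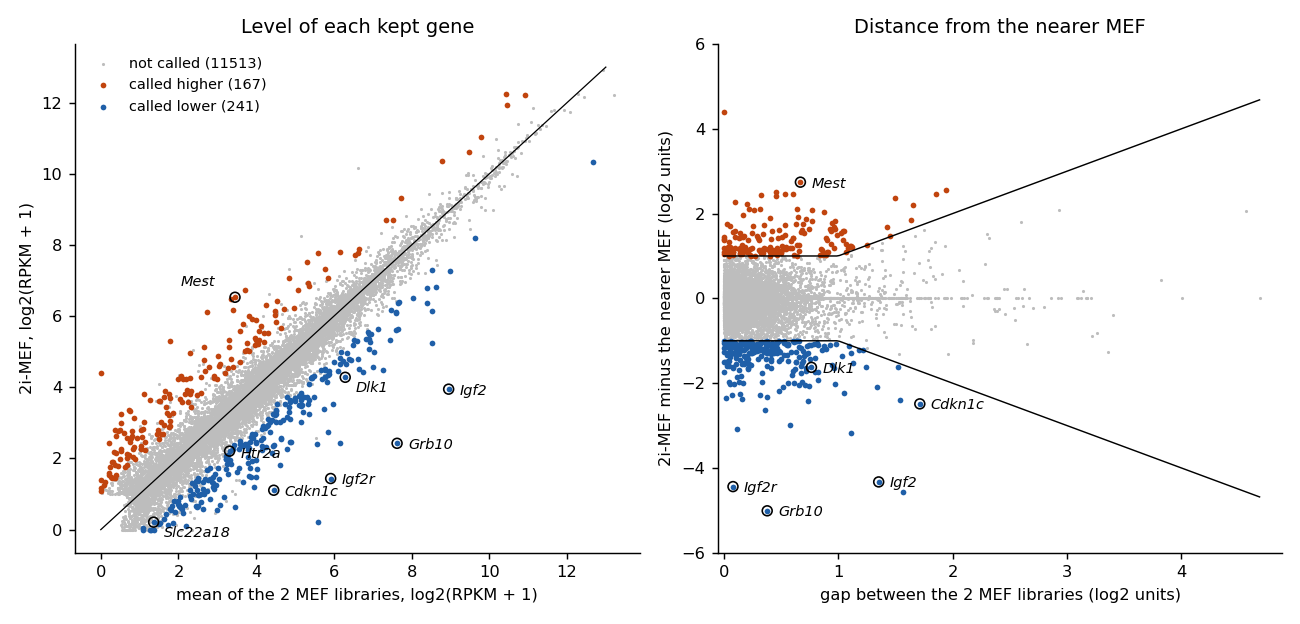
Left, each kept gene's level in 2i-MEF against the mean of both MEFs, log2(RPKM + 1), with the line of equality; right, its distance from the nearer MEF against the gap between the MEFs, with black lines at the calling threshold. Called genes are coloured (167 higher, 241 lower), and the called imprinted genes are circled: Grb10, Igf2r and Igf2 lie at the bottom of the right panel and Mest near the top (Htr2a and Slc22a18, at the threshold, are circled only on the left).

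Imprinted genes stood among the genes farthest below the MEFs. The table held 60 imprinted genes, of which 41 were kept, and 8 of these were called (19.5%, against 3.42% of all kept genes): 7 lower and 1 higher. The lists were drawn up with results of these data already known, so this share is a description. Of the 4 genes with the largest distance below both MEFs among all kept genes with at least 5 RPKM, 3 were imprinted, and of the lowest 12, 4 were. Limma called 5 of the 41. Scaling changed the rule calls of maternally expressed genes: 5 were called lower, 3 with quantile normalization and 4 with median scaling.

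By distance from the nearer MEF, Grb10 was the lowest gene of all. It read 4.38 RPKM in 2i-MEF, 225 in MEF 2 and 172 in MEF 4. The MEFs lay 0.38 log2 units apart, and 2i-MEF lay at -5.01 units from the nearer one, 32.2-fold lower on the log2(RPKM + 1) scale. Limma gave a difference of -5.20 ± 0.22 (SE; adjusted p = 0.0001). The 2i-ESC line 15 itself read 15.7 RPKM, above the fibroblasts made from it. The same held for Igf2r.

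Igf2r read 1.71 RPKM in 2i-MEF, 61.1 in MEF 2 and 57.7 in MEF 4, against 20.7 in 2i-ESC line 15. Both MEFs were alike to within 0.08 log2 units, and 2i-MEF lay at -4.44 units from the nearer one (limma difference -4.48 ± 0.29, adjusted p = 0.0015).

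Igf2 differed between the MEFs, at 792 RPKM in MEF 2 and 309 in MEF 4. The 14.4 RPKM of 2i-MEF lay at -4.33 log2 units from the lower MEF, beyond the 1.35 units between the MEFs. Limma gave -5.01 ± 0.51 (SE; adjusted p = 0.015). The 2i-ESC line 15 read 0.484 RPKM.

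Cdkn1c lay low as well, but against a wide gap. It read 1.16 RPKM in 2i-MEF, 38.6 in MEF 2 and 11.1 in MEF 4, a distance of -2.49 log2 units beside a gap of 1.71 (limma difference -3.34 ± 0.57, adjusted p = 0.047; the call did not hold in 4 of 9 other fits over the cross, nor with line 15 in 1 group only, at 0.096). Slc22a18, a transporter gene of the same cluster on chromosome 7, read 0.157, 1.43 and 1.71 RPKM, at -1.07 units from the nearer MEF. Its limma test did not pass (adjusted p = 0.29), and with quantile normalization it was not called.

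Dlk1, a membrane-bound inhibitor of fat cell formation, read 18.5 RPKM in 2i-MEF, 101 in MEF 2 and 59.1 in MEF 4, at -1.63 units from the nearer MEF (limma adjusted p = 0.19). Htr2a, a serotonin receptor gene whose imprinting is confined to some tissues, read 3.62, 8.42 and 9.51 RPKM, a distance of -1.03 units (adjusted p = 0.07); it was not called with quantile normalization or median scaling. Both were called lower by the rule, but neither passed the test.

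Mest was the only imprinted gene called higher. This gene of a hydrolase-like protein of mesoderm read 91.5 RPKM in 2i-MEF, 12.8 in MEF 2 and 7.69 in MEF 4. Its level lay 2.74 log2 units above the nearer MEF, 6.69-fold on this scale, against a gap of 0.67 (limma difference 3.08 ± 0.34, adjusted p = 0.015). The 2i-ESC line 15 read 19.4 RPKM, below its own fibroblasts. Over all kept genes with at least 5 RPKM, only Gm3625 lay farther above the MEFs. That locus is 103 bases long and read 20.1 RPKM in 2i-MEF and 0 in both MEFs; at such a length a few reads give a large RPKM.

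A called gene lies at least 1 log2 unit from either MEF, so leaving out a MEF could not undo a call. All 408 calls remained without MEF 2 and without MEF 4. Against MEF 2 alone, 2i-MEF differed by -5.39 in Grb10, -4.52 in Igf2r, -5.68 in Igf2 and 2.74 in Mest. Against MEF 4 alone, the differences were -5.01, -4.44, -4.33 and 3.41. All 4 were called under each of 9 other settings of the rule. The settings that leave out a MEF, change the filter or ask for 2 log2 units could not undo these calls. Each of the 4 genes lay over 2 units from the nearer MEF and reached 5 RPKM in at least 1 library. The count of settings is therefore a description. By limma, Grb10, Igf2r and Mest passed in all 9 alternative fits over the cross, among them those with 1 MEF left out. Their limma adjusted p ran from 4.3e-05 to 0.0012, from 0.00068 to 0.005 and from 0.005 to 0.033. Igf2 passed in 8 of 9, from 0.0019 to 0.068. With line 15 in 1 group only their adjusted p ran from 0.0011 to 0.034, and in the fit of 3 libraries from 0.056 to 0.14.

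**Figure D3:**
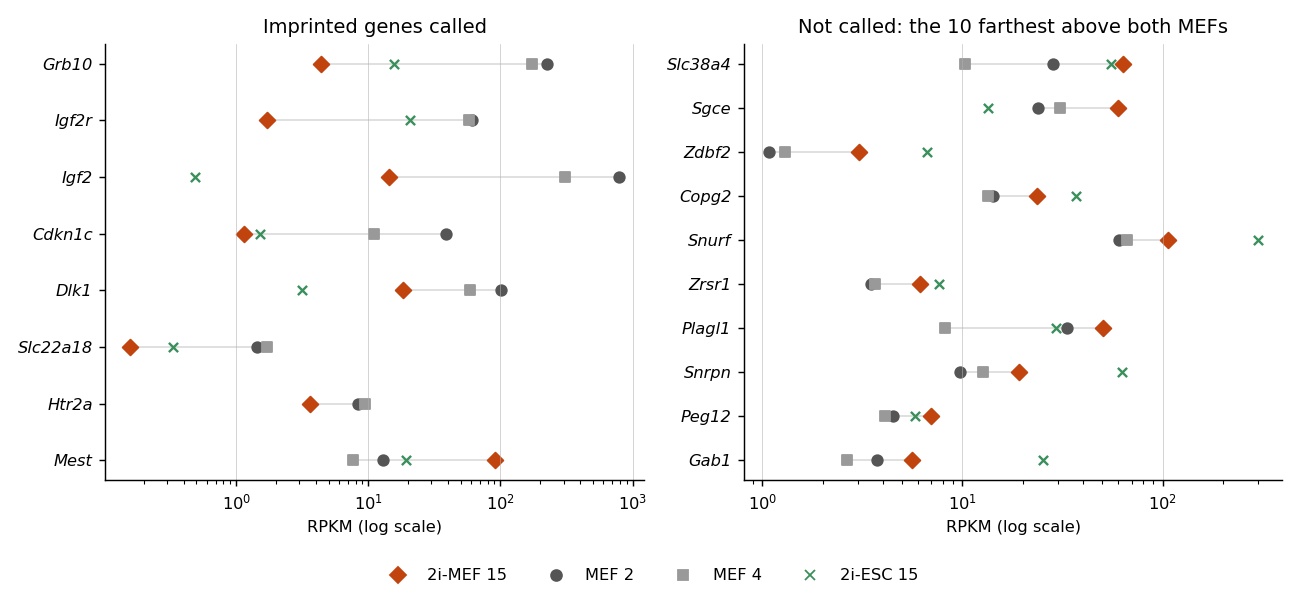
RPKM (log scale) of the 8 called imprinted genes (left) and of the 10 uncalled imprinted genes farthest above both MEFs (right) in 2i-MEF, MEF 2, MEF 4 and the parent line 2i-ESC 15, 1 library each; the grey line spans the fibroblast libraries. In Grb10, Igf2r and Igf2 the 2i-MEF lies far to the left of both MEFs, and in Mest to the right.

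The genes around them were mostly not called. Within 250 kb, none of 3 kept neighbours of Grb10, 6 of Igf2r, 3 of Igf2 and 4 of Mest was called. Over all kept genes 3.42% were called, so numbers this small cannot set the neighbours apart from other genes. Ddc, which lies beside Grb10, read 4.52 RPKM in 2i-MEF, between 6.64 in MEF 2 and 2.05 in MEF 4. Sod2, near Igf2r, read 11.4, 14.4 and 13.5. At Cdkn1c 2 of 7 neighbours were called lower, Slc22a18 and the receptor gene Tnfrsf22, which read 3.70, 11.7 and 13.7 RPKM and was named here after its values were seen. Dlk1 had no kept neighbour in this window.

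The paternally expressed genes above the MEFs mostly stayed short of the threshold. Snurf, in the same transcript unit as Snrpn, read 107 RPKM in 2i-MEF, 60.5 in MEF 2 and 66.4 in MEF 4, and Snrpn read 19.3, 9.77 and 12.6; reads of these overlapping genes may be split between them. Zrsr1, a splicing factor gene, read 6.16, 3.50 and 3.64. Sgce, which encodes a sarcoglycan, read 60.2, 23.8 and 30.6 and missed the threshold at 0.95 units. None of these passed the limma test, with adjusted p between 0.1 for Snurf and 0.5 for Sgce.

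Other paternally expressed genes did not separate. Peg3, a zinc finger gene, read 21.3 RPKM in 2i-MEF, 18.9 in MEF 2 and 12.8 in MEF 4. Peg10 and Ndn lay between the MEFs, Peg10 at 8.14 between 10.7 and 4.76, and Ndn at 41.9 between 38.3 and 44.8. Plagl1, which encodes a zinc finger regulator of the imprinted network, read 50.3, 33.4 and 8.18, with a wide gap between the MEFs. In the list of paternally expressed genes 14 of 23 kept members lay above both MEFs and 4 below, with a median of 0.42 (1 called higher, and 4 against MEF 4 alone); in that of maternally expressed genes 5 of 18 lay above and 11 below, with a median of -0.21. The median of all kept genes was -0.04.

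The 13 kept maternally expressed genes outside the called set lay from -0.28 to 0.69 units from the nearer MEF. They include neighbours of Cdkn1c and Slc22a18 in the cluster on chromosome 7: Tssc4 read 30.5 RPKM against 37.3 and 38.4, Osbpl5 read 31.4 against 36.5 and 39.3, and Nap1l4 read 149 against 154 in both MEFs. Ube3a, the ubiquitin ligase gene, read 35.2 RPKM between 31.3 and 38.4, and Cd81 read 343 against 373 and 447. Copg2 read 23.5 against 14.2 and 13.4; it overlaps Mest on the other strand, and whether the counting used strand was not given in the sources used here. Phlda2 was under 1 RPKM in all 3 libraries. H19, Meg3, Rian, Airn and Kcnq1ot1, the long non-coding RNAs of these clusters, were not analysed here.

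The insulin-like growth factor pathway held 2 calls beyond Igf2 and Igf2r. Of 17 kept genes of that list 2 were called higher and 2 lower, the latter being the imprinted pair. Over all kept genes 1.40% were called higher and 2.02% lower. The median difference of the list was 0.26 (with MEF 2 alone as the reference it was -0.21). The receptor gene Igf1r read 18.2 RPKM in 2i-MEF, 24.1 in MEF 2 and 26.3 in MEF 4, and the ligand gene Igf1 read 11.6 between 16.5 and 5.31. Htra1, a secreted protease gene, read 160, 74.3 and 39.0, and Stc2, a secreted inhibitor of pregnancy-associated plasma protein proteases, read 8.78, 3.42 and 1.44. Neither of these passed the limma test (adjusted p = 0.2 and 0.33).

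In the list of DNA methylation machinery 1 of 13 kept genes was called, against 3.42% of all kept genes. With quantile normalization or median scaling none of the 13 was called. Zfp57, a zinc finger gene whose protein guards methylation at imprinted regions, read 11.6 RPKM in 2i-MEF, 25.1 in MEF 2 and 31.6 in MEF 4, a distance of -1.05 units (limma difference -1.21 ± 0.19, adjusted p = 0.036; it passed in 5 of 9 alternative fits, and not with line 15 in 1 group only, at 0.062). Dnmt1, the maintenance methyltransferase, read 22.6, 35.6 and 26.01. Dnmt3a, which methylates new sites, read 13.5, 8.82 and 6.99, above both MEFs but short of the threshold. Germline genes silenced by promoter methylation stayed low: 5 of 31 were kept and none was called, and Dazl, the germ cell RNA-binding protein gene, read 0.0226, 0 and 0.0143 RPKM against 178 in 2i-ESC line 15.

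A part of the collagen genes was higher in 2i-MEF. Of 29 kept members of the list (of 32), 10 were called higher and none lower, 20 lay above both MEFs and 2 below, and the median difference was 0.95 log2 units against -0.04 over all genes. The summed level was 18050.2 RPKM in 2i-MEF, 8354 in MEF 2 and 7188 in MEF 4. Limma called 3 of them, Col5a3, Col11a1 and Col15a1, and only Col5a3 with line 15 in 1 group only (adjusted p = 0.034, against 0.06 and 0.067). The 2 genes below both MEFs were Col4a5, at 29.4 RPKM against 49.2 and 90.02, and Col11a2, at 0.774 against 1.26 and 0.965. Against MEF 4 alone 14 were called higher and 2 lower, and against MEF 2 alone 12 and 0. The rule called 1.40% of all kept genes higher and 2.02% lower.

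Among fibrillar collagens, Col1a1 read 4799 RPKM in 2i-MEF, 2177 in MEF 2 and 1741 in MEF 4, 1.14 units above the nearer MEF. Its partner chain in type I collagen, Col1a2, read 3894, 1505 and 1297. Col3a1, the chain of type III collagen, read 4850.1, 1986 and 949. These 3 were called higher by the rule but did not pass the test (limma adjusted p = 0.58, 0.55 and 0.32). Col1a1 also varied in the ESC libraries that feed the spread of the fit, with 1.61 RPKM in 2i-ESC line 15, 6.89 in serum ESC line 8 and 25.0 in serum ESC line 12.

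Less abundant collagens lay farther away. Col5a3, a minor chain of type V collagen, read 70.6 RPKM in 2i-MEF, 12.1 in MEF 2 and 7.59 in MEF 4, 5.48-fold above the nearer MEF (limma difference 2.76 ± 0.30, adjusted p = 0.015). Col11a1, a regulator of fibril width in cartilage and embryonic tissue, read 184, 42.6 and 35.3 (difference 2.22 ± 0.31, adjusted p = 0.028). Col15a1, a basement membrane zone collagen, read 34.1, 7.27 and 3.84 (adjusted p = 0.04). Col18a1, the source of endostatin, read 105, 22.1 and 6.31 and just missed the test (adjusted p = 0.052). The basement membrane chains Col4a1 and Col4a2 were close to the MEFs, Col4a1 at 562 RPKM against 495 and 539.

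Other matrix genes went both ways. Fn1, which encodes fibronectin, read 1563 RPKM in 2i-MEF, 721 in MEF 2 and 703 in MEF 4 (limma difference 1.13, adjusted p = 0.049; it passed in 2 of 9 alternative fits, and not with line 15 in 1 group only, at 0.081). Postn, the matricellular protein periostin, read 2116, 949 and 811. Fap, a membrane protease gene of activated fibroblasts, read 17.9, 5.10 and 2.11. In contrast S100a4, a calcium-binding protein gene often used as a fibroblast marker, read 1299 against 5496 and 7853, at -2.08 units from the nearer MEF, and the transcription factor gene Twist2 read 38.9 against 84.9 and 97.2. Neither passed the test (adjusted p = 0.16 and 0.084).

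Surface markers of fibroblasts were not called. Pdgfra read 35.7 RPKM in 2i-MEF, between 57.6 in MEF 2 and 25.1 in MEF 4, and Thy1 read 308 between 245 and 377. Of the contractile genes, Acta2, smooth muscle actin, read 2079.8 RPKM between 1795 and 2204. The smooth muscle list held 1 call among 12 kept genes, beside 3.42% of all kept genes. Myh11, the smooth muscle myosin heavy chain, read 1.51, 5.44 and 7.07 (limma difference -1.52 ± 0.25, adjusted p = 0.04; it passed in 6 of 9 alternative fits, and not with line 15 in 1 group only, at 0.092).

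Matrix proteases and their inhibitors were split. Of 19 kept genes 3 were called higher and 1 lower, beside 1.40% and 2.02% of all kept genes. Mmp13, a collagenase gene, read 11.5 RPKM in 2i-MEF, 2.91 in MEF 2 and 0.458 in MEF 4, and Serpinf1, the secreted factor PEDF, read 1312, 548 and 346. Timp3, a matrix-bound inhibitor of proteases, was lower at 155 against 332 and 403. No member passed the limma test.

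**Figure D4:**
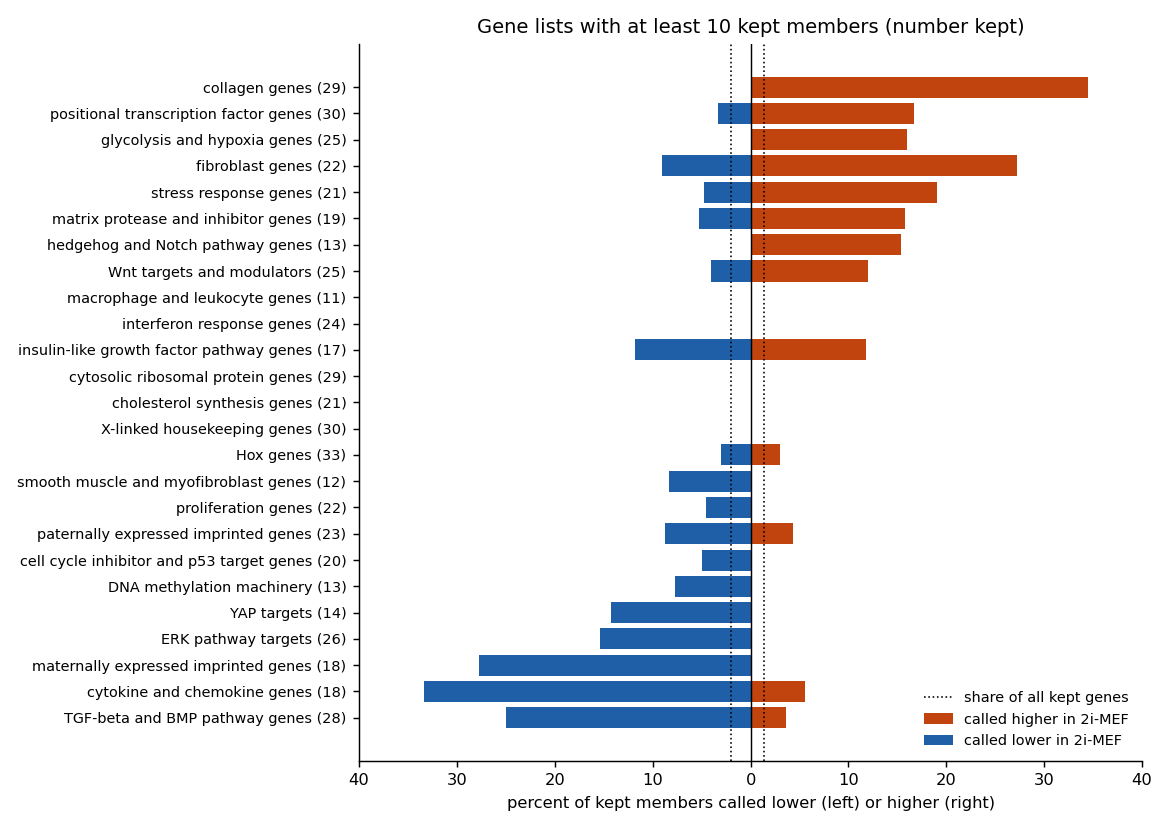
For each gene list with at least 10 kept members (number in parentheses), the percent of kept members called lower (left) and higher (right) in 2i-MEF; dotted lines mark the shares over all kept genes, 2.02% and 1.40%. Collagen genes have the longest bar to the right (10 of 29), and cytokine, maternally expressed imprinted and TGF-beta and BMP genes the longest to the left (6 of 18, 5 of 18 and 7 of 28).

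Several genes of bone morphogenetic protein (BMP) and TGF-beta signalling were lower. BMPs and activins are secreted ligands; follistatin binds activins and blocks them; the Id genes are direct targets of BMP. Of 28 kept genes 7 were called lower and 1 higher, 16 lay below both MEFs and 6 above, and the median difference was -0.48. The 6 above were Bmp5, Bmp1, Tgfbi and the ligand genes Tgfb1, Tgfb2 and Tgfb3. Over all kept genes 2.02% were called lower and 1.40% higher, and 43.5% lay below both MEFs. Against MEF 2 alone 8 of the list were called lower and 2 higher, and against MEF 4 alone 9 and 3.

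Among the ligands, Inhba, the activin subunit gene, read 38.6 RPKM in 2i-MEF, 79.1 in MEF 2 and 115 in MEF 4, a distance of -1.01 units; it was not called with quantile normalization or median scaling, or with 2 gaps. Bmp5 was the member called higher, at 5.53 against 1.18 and 0.0540 (limma adjusted p = 0.051); with a pseudocount of 0.1 RPKM, or a distance over 2 gaps, it was not called. Of the blockers, Fst, which encodes follistatin, read 5.64 RPKM against 54.9 and 59.4, 8.41-fold lower than the nearer MEF. Its limma difference was -3.13 ± 0.26 (adjusted p = 0.0085; 0.0037 to 0.14 over 9 alternative fits, and over the threshold only in the fit without a term for XX).

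Of the 4 kept Id genes, 3 were called lower. Id1 read 22.7 RPKM in 2i-MEF, 114 in MEF 2 and 142 in MEF 4, Id2 read 12.3, 47.4 and 40.7, and Id4 read 5.001, 18.5 and 31.0. Their distances from the nearer MEF were -2.27, -1.65 and -1.70 units, each larger than the gap between the MEFs, as the rule requires. None passed limma's test (adjusted p = 0.11, 0.23 and 0.06). Id3 was not called, at 120.2 RPKM against 198 and 226 and a distance of -0.72.

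Some cytokine and chemokine genes were lower. Of 18 kept genes 6 were called lower and 1 higher, 11 lay below both MEFs and 4 above, with a median of -0.64. Those above were Cxcl12, Ccl20, Il33 and Saa3, and only the first was called. The shares over all kept genes were 2.02% called lower, 1.40% called higher and 43.5% below both MEFs. Against MEF 2 alone 8 of the list were called lower and 1 higher, and against MEF 4 alone 7 and 3. Ccl2, which draws monocytes, read 37.2 RPKM in 2i-MEF, 299.6 in MEF 2 and 448 in MEF 4 (limma difference -3.27 ± 0.44, adjusted p = 0.024; 0.06 with line 15 in 1 group only, 0.13 in the fit of 3 libraries). Ccl7, a chemokine encoded next to it, read 81.4, 270.0 and 413. Csf1, the macrophage growth factor, read 89.8, 243 and 280. Il1rl1, the receptor for interleukin 33, read 20.7, 109 and 104 (adjusted p = 0.018).

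The 6 lower genes lay below both MEFs, as the rule requires. Leukocyte markers summed to 12.6 RPKM in 2i-MEF, 273 in MEF 2 and 28.1 in MEF 4. The part of leukocytes in these 6 differences was not tested. Cxcl12, the stromal chemokine that holds blood stem cells in the marrow, went the other way, at 217 RPKM in 2i-MEF, 66.8 in MEF 2 and 33.8 in MEF 4 (limma adjusted p = 0.09). No interferon response gene of 24 kept was called.

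**Figure D5:**
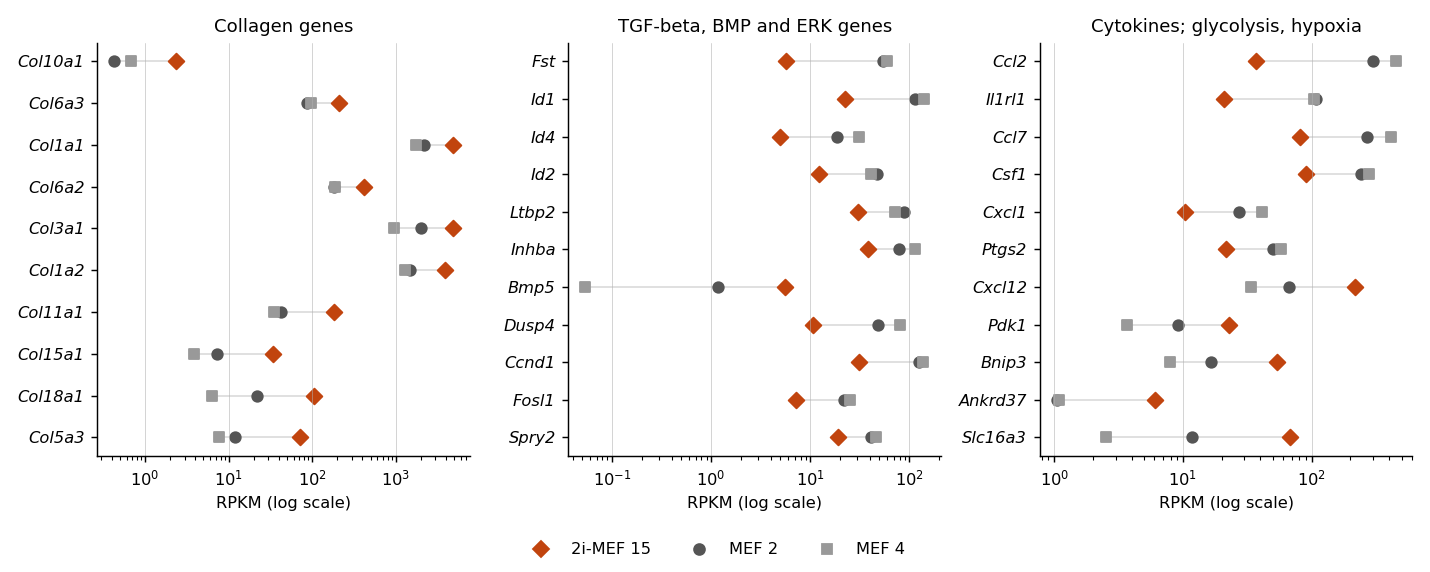
RPKM (log scale) of called members of the collagen list (left), the TGF-beta and BMP and ERK lists (middle) and the cytokine and glycolysis and hypoxia lists (right) in 2i-MEF, MEF 2 and MEF 4, 1 library each; the grey line spans the 3 values. The 10 collagen genes lie to the right of both MEFs in 2i-MEF, and in the middle panel only Bmp5 does.

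Targets of ERK, the kinase cascade blocked in 2i medium, tended to lie below the MEFs. Of 26 kept genes 4 were called lower and none higher, 19 lay below both MEFs (43.5% of all kept genes did) and 4 above, and the median difference was -0.55. Against MEF 4 alone 9 were called lower, and against MEF 2 alone 6. The rule called 2.02% of all kept genes lower. Dusp4, a phosphatase gene that feeds back on ERK, read 10.6 RPKM in 2i-MEF, 47.8 in MEF 2 and 80.7 in MEF 4. Ccnd1, the cyclin D1 gene, read 30.9 against 125 and 137, with only 0.13 units between the MEFs and a distance of -1.98. Fosl1, a subunit of the AP-1 factor, read 7.18, 21.8 and 25.3, and Spry2, a feedback inhibitor, read 19.1, 41.1 and 46.1 and was not called with quantile normalization.

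None of these 4 passed the limma test (adjusted p from 0.052 for Ccnd1 to 0.076 for Dusp4). The immediate early genes went both ways without a call: Egr1 read 33.6 RPKM against 23.3 and 23.5, and Egr2, Egr3 and Ier2 also lay above both MEFs. Fos and Fosb lay between them. Below both were Ier3, at 41.1 against 75.0 and 85.5, Myc, at 48.9 against 63.8 and 72.2, and Junb, at 54.5 against 59.2 and 58.6. Targets of YAP, which responds to cell tension and density, were below both MEFs in 13 of 14 cases, with a median of -0.76. The share below both MEFs over all kept genes was 43.5%. Called lower were Lats2, a kinase gene of that pathway, at 18.6 RPKM against 46.6 and 61.0, and Crim1, at 16.1 against 39.97 and 39.83. Limma called neither (adjusted p = 0.16 and 0.056). Against MEF 4 alone 5 YAP targets were called lower, and against MEF 2 alone 2.

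Genes of glycolysis and of the response to low oxygen were higher in part. Of 25 kept genes 4 were called higher and none lower, 18 lay above both MEFs and 3 below, with a median of 0.52. Among all kept genes 1.40% were called higher, and 34.1% lay above both MEFs. Slc16a3, the lactate exporter gene, read 68.3 RPKM in 2i-MEF, 11.7 in MEF 2 and 2.51 in MEF 4. Bnip3, a mitophagy gene induced by low oxygen, read 53.7, 16.6 and 7.99, and Pdk1, which diverts pyruvate from mitochondria, read 22.8, 9.12 and 3.70. The MEFs themselves were 1.86, 0.97 and 1.11 units apart in these genes, and none of the 3 was called when the distance had to exceed 2 gaps.

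Ankrd37, another gene induced by low oxygen, was the exception, at 6.03 RPKM against 1.04 and 1.09 and a gap of 0.03. Limma did not call any member (adjusted p from 0.072 to 0.3 for these 4). The glycolytic enzymes were closer to the MEFs: Gapdh read 1587 RPKM between 1722 and 1484, and Aldoa read 1008 against 781 and 634.

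Stress response genes went both ways. Of 21 kept genes 4 were called higher and 1 lower, 12 lay above both MEFs and 8 below, with a median of 0.38. Among all kept genes 1.40% were called higher and 2.02% lower, and 34.1% lay above both MEFs and 43.5% below. The 4 stress genes called higher belong to the amino acid, unfolded protein and growth arrest responses. Trib3, a pseudokinase gene induced by ATF4, read 122 RPKM in 2i-MEF, 43.3 in MEF 2 and 35.2 in MEF 4. Ddit3, the factor CHOP, read 236, 98.0 and 101, and Gadd45a, a growth arrest gene, read 105, 38.7 and 27.5. Chac1, which degrades glutathione, read 45.1, 21.0 and 16.5. None of the 4 passed limma's test (adjusted p from 0.12 to 0.67). Nqo1, a target of the antioxidant factor NRF2, was lower, at 8.87 against 28.1 and 27.6 (limma difference -1.55 ± 0.25, adjusted p = 0.037; it passed in 4 of 9 alternative fits). The others below both MEFs were Gclm, Txnrd1, Hmox1 and the heat shock genes Hspa1a, Hspa1b, Hspb1 and Dnajb1.

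Calls among proliferation genes are set beside the 3.42% called over all kept genes. Of 22 kept genes 1 was called: Rrm2, which makes deoxynucleotides, read 70.9 RPKM in 2i-MEF, 167 in MEF 2 and 187 in MEF 4 (limma difference -1.30 ± 0.16, adjusted p = 0.018). Of 20 kept cell cycle inhibitors and p53 targets 1 was called, Perp, at 3.86 RPKM against 18.7 and 37.6 (adjusted p = 0.086). Cdkn2a, the locus of p16 and p19ARF that accumulates with culture, read 88.6 RPKM against 48.9 and 47.2, 0.85 units above, and Cdkn1a, which encodes p21, read 173 against 245 and 314. Neither of the latter pair was called.

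Transcription factors that mark the position of origin of mesenchyme differed gene by gene. Of 30 kept genes 5 were called higher and 1 lower, beside 1.40% and 2.02% of all kept genes. The median of the list was 0.11 (-0.39 against MEF 2 alone). Against MEF 4 alone 12 were called higher and 2 lower, and against MEF 2 alone 5 and 3. Alx1, a factor of head mesenchyme, read 5.17 RPKM in 2i-MEF, 0.692 in MEF 2 and 0.0277 in MEF 4 (limma difference 2.23 ± 0.31, adjusted p = 0.025). Foxc1, a factor of head and trunk mesoderm, read 7.88, 1.52 and 0.281 (adjusted p = 0.033), and Pax1, of the sclerotome, read 3.06, 0.801 and 0.395 (adjusted p = 0.044). Foxd1, listed with kidney stroma, read 5.99, 0.609 and 0.0346 (adjusted p = 0.025).

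Meox1, a factor of the somites, and Dlx5, of the jaw and limb, were called higher at levels of 3.48 and 1.92 RPKM in 2i-MEF but did not pass the test (adjusted p = 0.12 and 0.051). Lhx9, a factor of limb and gonad, was lower, at 0.961 RPKM against 3.18 and 6.95, and was not called with quantile normalization. With line 15 in 1 group only, none of Alx1, Foxc1, Pax1 and Foxd1 passed (adjusted p from 0.06 to 0.1). In most of these genes MEF 2 lay between 2i-MEF and MEF 4. Of 33 kept Hox genes, which set position along the body axis, 1 was called higher and 1 lower: Hoxa3 read 4.01 RPKM against 1.21 and 0.466, and Hoxc13 read 0.0274 against 1.14 and 1.09 (not called with quantile normalization or median scaling). Against MEF 4 alone 4 Hox genes were called higher and 6 lower, and against MEF 2 alone 2 and 4. The rule called 1.40% of all kept genes higher and 2.02% lower, so 1 call each way cannot set Hox genes apart. Which part of the embryo each culture came from was not given in the sources used here, so region of origin cannot be told apart from ESC origin.

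Signalling genes of the embryo were called singly. In the Wnt list 3 of 25 kept genes were called higher and 1 lower, beside 1.40% and 2.02% of all kept genes. These Wnt counts were 6 and 6 against MEF 4 alone, and 3 and 4 against MEF 2 alone. Rspo2, a secreted enhancer of Wnt signalling, read 7.15 RPKM in 2i-MEF, 1.75 in MEF 2 and 0.726 in MEF 4 (limma adjusted p = 0.032), and the ligand gene Wnt2 read 0.572, 3.89 and 5.54 (limma difference -1.85 ± 0.23, adjusted p = 0.02). With line 15 in 1 group only neither passed (adjusted p = 0.081 and 0.06). In the hedgehog and Notch list 2 of 13 were called higher, the Notch targets Hey1, at 4.92 against 0.793 and 0.404, and Heyl, at 4.94 against 1.53 and 0.171. Neither passed limma's test (adjusted p = 0.11 and 0.092).

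Over all kept genes, other genes lay as far from the MEFs as the imprinted ones. S100a7a, an S100 gene of epithelia, was between Grb10 and Igf2r in distance: it read 0.172 RPKM in 2i-MEF, 26.8 in MEF 2 and 81.6 in MEF 4 (limma difference -5.35 ± 0.52, adjusted p = 0.015). Serpinb9b, a protease inhibitor gene, read 4.46, 47.9 and 104 (adjusted p = 0.018). Styk1, a pseudokinase gene, read 0.545, 11.4 and 8.61 (adjusted p = 0.011). Sbsn, Syt13 and Mapk13 completed the lowest 12 with Fst, Ccl2 and the 4 imprinted genes.

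Among the 12 highest were Mest, Col5a3, Slc16a3 and Gm3625. Slc40a1, the iron exporter ferroportin, read 38.3 RPKM in 2i-MEF, 5.71 in MEF 2 and 0.743 in MEF 4, with 1.94 units between the MEFs (limma adjusted p = 0.091). Nefm, a neurofilament gene, read 8.51, 0.681 and 0.224 (adjusted p = 0.044). Car6, a secreted carbonic anhydrase, read 9.18, 0.881 and 0.497 (adjusted p = 0.015). Bmf, a death-promoting gene of the BCL2 family, read 0.350 and 0.450 RPKM in the MEFs and lay 2.27 units above the nearer one (adjusted p = 0.028; 0.06 with line 15 in 1 group only). The remaining 4 were 1500015O10Rik, Ndufa4l2, Nrep and Hid1, with distances from 2.22 to 2.45 units.

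Markers of other cell types were mostly low or alike. Of 10 red blood cell genes none was kept. Skeletal muscle genes summed to 2.53 RPKM in 2i-MEF, 4.803 in MEF 2 and 2.204 in MEF 4. Endothelial genes summed to 4.73, 4.87 and 4.18; Kdr, a receptor of that lineage, was called lower at 0.497 RPKM against 2.05 and 2.85, and Cdh5 was under 0.1 in all 3. Epithelial keratins differed between the MEFs, and Krt19 was called lower at 8.94 RPKM against 51.5 and 24.7, while Epcam and Cdh1 were at or near 0 throughout.

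In the cartilage and bone list 1 of 4 kept genes was called, Acan, the aggrecan gene, at 2.71 RPKM against 0.559 and 0, while Bglap was at 0 in all 3. In the fat cell list 1 of 5 was called, Lpl, at 24.0 RPKM against 81.0 and 60.8. With 3.42% of all kept genes called, counts in lists this small are only a description. Of 7 kept neural and glial genes none was called; Sox10 read 2.66 RPKM in 2i-MEF, 2.23 in MEF 2 and 0.264 in MEF 4. Pluripotency genes summed to 9.50, 8.31 and 5.97 RPKM, of which Tbx3, also expressed in mesenchyme, gave 7.06, 7.49 and 5.34.

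The lists with no call were ribosomal protein genes (29 kept), X-linked housekeeping genes (30), cholesterol synthesis genes (21), interferon response genes (24) and the escape, leukocyte, germline, neural, skeletal muscle and pluripotency lists named above. Over 403 kept X-linked genes the median difference from the MEF mean was -0.11 log2 units, against -0.04 over autosomal genes.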

How the data were processed

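The authors deposited 1 table of gene-level RPKM for 26 RNA-seq libraries (stranded mRNA kit, per the labels' protocols) with 21942 loci. Named per the submitters' processing notes are the mm10 build, Bowtie2 2.2.5, cutadapt 1.9.1, Cufflinks 2.2.1 and TopHat2 2.1.0; the role of each tool and the annotation were not given in the sources used here. RPKM carry no counts, so depth is unknown and no counting interval is given.

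Values were taken to log2 after adding a pseudocount of 1 RPKM, without further scaling. Genes that reached 1 RPKM in any of the 3 fibroblast libraries were kept (11921). Calls needed a distance of at least 1 log2 unit from the nearer MEF and of more than the gap between the MEFs. Limma 3.58.1 (R 4.3.3) was fitted to the 10 libraries of the cross with 5 group means and a term for XX among ESC lines (4 residual degrees of freedom, eBayes with trend), with Benjamini-Hochberg adjustment over kept genes. Both steps were tested on simulated data. Such data cannot show whether the real libraries of the same ESC line are independent. Nor can they show whether the lone fibroblast library of ESC origin varies like the other groups. The simulated tests therefore lend no weight to the calls. The 3 fibroblast libraries carry no shared replicate number.

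Named genes were a checked set of 24, up to 4 called members of each list and direction by distance, and the 12 genes farthest above and below the MEFs with at least 5 RPKM; members of a list named beside these are given as context. The comparison, the 36 gene lists (769 genes, 17 without a match) and the tests were chosen with earlier results of these data known. Alternatives changed the pseudocount, filter, scaling, MEF, thresholds or fit. Bisulfite samples were not analysed here, and 1 called gene is not reported here. Tables and figures used matplotlib 3.10.9, numpy 2.4.6 and pandas 2.3.3 in Python 3.11.15.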

Additional observations from a re-analysis of the deposited data

How the results depend on the processing

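By the rule, 167 genes were higher and 241 lower in 2i-MEF, and limma called 40 and 64. Counts moved by over 1.5 times as follows. A pseudocount of 0.1 RPKM gave 252 and 427 by the rule and 4 and 11 by limma. A distance of at least 2 log2 units left 19 and 27. With 1 MEF left out the gap condition falls away, and the spread of the lone MEF is taken from the other groups: the rule gave 225 to 535 higher and 455 to 539 lower, and limma 88 to 278 and 217 to 268, the larger counts being those without MEF 2. With 2i-MEF as the only library of line 15, an alternative chosen after seeing the data, limma called 12 higher and 24 lower. Limma over the 3 fibroblast libraries gave 0 and 0 (1802 genes at an unadjusted p under 0.05). The remaining settings stayed within 1.5 times: 5 RPKM in 1 library (126 and 205; 28 and 49), no filter (167 and 241; 51 and 67), quantile normalization (203 and 197; 60 and 55), median scaling (197 and 211; 44 and 48), a distance over 2 gaps (123 and 199), no term for XX (43 and 57) and robust eBayes (34 and 57). Of the 408 rule calls, 393 remained with the smaller pseudocount, 359 with quantile normalization, 378 with median scaling and 322 with 2 gaps; the cause of each loss was not tested. Of 115 genes run under each setting, 102 were called, and limma called 34 of these. None of the 102 changed sign by the rule, nor any of the 34 by limma. Called genes lay at least 1 log2 unit outside both MEFs, so these settings could hardly reverse a sign, and the lack of reversals is no support. Of the 34 genes called by limma, 16 were called with 2i-MEF as the only library of line 15. No paired analysis was possible because MEF 2, MEF 4 and 2i-MEF 15 share no replicate number, and the only 2i-MEF and 2i-S-ESC libraries are of line 15, so that a correlation within that line cannot be estimated. Read totals are unknown. By the spacing of the lowest values 2i-MEF was the shallowest of the fibroblast libraries, which would limit genes near 1 RPKM most.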
